A study of Homo sapiens with 18 samples.

Results

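The genes described here are 9 genes of the NRF2 antioxidant pathway, chosen by name, with earlier results of these data known. They comprise NFE2L2, which encodes the transcription factor NRF2, its inhibitor KEAP1, and the target genes GCLC, GCLM, TXNRD1, SRXN1, HMOX1, NQO1 and OSGIN1. All 9 were found among the 62703 genes of the expression files. Poly(A) RNA had been sequenced from the established triple-negative breast cancer line MDA-MB-231. There were 10 distinct libraries, 2 for each of 5 groups. Cells of the Control shRNA, shEZH2 and shE2F1 groups received a short hairpin RNA by lentivirus (24 h), then puromycin at 2 µg/ml (72 h), and differed in the hairpin. Cells of the DMSO and GSK126 groups were treated for 72 h with the solvent or with 1 µM GSK126, which blocks methylation of histones by EZH2. The labels name no clone and give 1 hairpin name per target, so effects through the intended target and through other transcripts cannot be told apart. The labels do not say that the 2 libraries of a group came from separate cultures, and p-values therefore measure only the spread between these libraries.

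NRF2 is held in the cytoplasm by KEAP1, which hands it to a ubiquitin ligase for destruction. When oxidants or electrophiles modify cysteines of KEAP1, newly made NRF2 escapes, enters the nucleus and, paired with a small MAF protein, binds antioxidant response elements in genes for glutathione synthesis, thioredoxin reduction, quinone detoxification and heme breakdown. Its activity is therefore set largely at the level of protein, which RNA sequencing does not see. BACH1, a heme-sensitive repressor, competes for the same elements and restrains HMOX1 with particular strength. EZH2 is the methyltransferase of the Polycomb complex PRC2, and E2F1 drives transcription of genes for DNA replication and division. The comparisons ask whether loss of either protein, or inhibition of the enzyme alone, moves the RNA of this pathway.

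Totals ran from 13198932 to 20055550 expected counts per library. EZH2 RNA changed by -1.79 ± 0.12 (log2 change ± SE) in shEZH2, with an adjusted p of 2.4e-06 in edgeR's quasi-likelihood test, and E2F1 RNA by -2.54 ± 0.24 in shE2F1, with an adjusted p of 1.52e-05. E2F1 RNA was also lower in shEZH2, by -1.59 on the log2 scale (edgeR adjusted p = 0.000172). EZH2 RNA was in turn lower in shE2F1, by -0.38 (1.3-fold, edgeR adjusted p = 0.0227). The libraries of both knockdowns thus carried less of both transcripts, to unequal degrees. Of 8 luminal markers, the receptor genes ESR1 and PGR and the factor FOXA1 stayed under 1 TPM in every library, while KRT19 stood at 246 to 847 TPM and EPCAM at 12.4 to 37.7 TPM. The luminal sum was 521 to 700 TPM in the control libraries, 292.7 to 297 TPM in shEZH2 and 534 to 536 TPM in shE2F1. VIM, a mesenchymal marker, stood between 1185 and 2860 TPM. Of 11 markers of blood, vessel and stromal cells, 6 stayed under 1 TPM throughout. The summed level of the 11 was 89.0 to 92.8 TPM in the control libraries, 66.6 to 70.2 TPM in shEZH2 and 160 to 171 TPM in shE2F1. Over the 10 libraries CD68 had the highest median of the 11 (30.8 to 158 TPM), followed by COL1A1 (3.49 to 31.4 TPM). The summed level of 6 mesenchymal markers was 5837 to 6045 TPM, 3203 to 3496 TPM and 4475 to 4782 TPM in the same order. The part of these shifts in the results was not tested. In bulk RNA, fewer cells of a kind and less RNA per cell cannot be told apart.

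NRF2 and BACH1 read the antioxidant response element, whose letters can be looked for near the starts of these genes. The core of the antioxidant response element was searched as TGACNNNGC, on both strands, in RefSeq promoters of build GRCh38.p14 that cover 250 bases before and 50 bases after a transcription start. The table held 11 promoters for 8 of the 9 genes, all but HMOX1. A core was found in 4 of the 11, which belong to GCLM, TXNRD1 and KEAP1, against 13.3% of all 35116 promoters in the table. The matches are shown for all 3 genes with a core. In shEZH2 GCLM carries one of the main changes reported here, while TXNRD1 and KEAP1 did not pass the test. KEAP1 did pass it there with a correction for the GC content and length of the transcript. In shE2F1 all 3 passed, with log2 changes of -0.66 for GCLM, 0.38 for TXNRD1 and 0.34 for KEAP1. Each sequence runs 5′ to 3′ on the strand of its gene, and capitals mark the letters of the core, which appears as its reverse complement where it lies on the other strand.
GCLM, chr1:93909430-93909489, minus strand: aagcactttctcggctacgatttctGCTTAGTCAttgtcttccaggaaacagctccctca
TXNRD1, upstream start, chr12:104215655-104215714, plus strand: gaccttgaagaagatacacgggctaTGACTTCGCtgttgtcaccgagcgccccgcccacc
TXNRD1, downstream start, chr12:104286905-104286964, plus strand: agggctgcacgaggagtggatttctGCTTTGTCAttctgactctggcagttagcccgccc
KEAP1, chr19:10502791-10502850, minus strand: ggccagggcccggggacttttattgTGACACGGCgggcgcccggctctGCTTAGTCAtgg
The GCLM core and the second KEAP1 core spelled the same word on the opposite strand, TGACTAAGC, and began 34 and 31 bases before the start. In TXNRD1 the cores shown began 99 bases before the upstream start and 102 bases before the downstream one, and TXNRD1 held 1 more core, TGACGGAGC on the opposite strand, which began 8 bases before the upstream start. The AP-1 motif TGANTCA was found only in the promoter of OSGIN1 among the 11, as TGACTCA 97 bases before the start, against 7.71% of all promoters. The E2F words TTTCCCGC and TTTGGCGC were found in 2.27% of all promoters and in 1 of the 11, where KEAP1 carried TTTCCCGC 36 bases before its other start. These matches describe letters in a window and show no binding. Sequence outside the window was not searched, so a gene without a match may hold a core elsewhere.

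Levels were compared between genes in TPM, which takes account of transcript length. TXNRD1, the cytosolic thioredoxin reductase, and NQO1, a quinone reductase, had the highest levels in the control, DMSO and GSK126 libraries, while in shE2F1 KEAP1 lay above NQO1 and in shEZH2 the libraries of KEAP1 and NQO1 overlapped. TXNRD1 ranged from 129 to 249 TPM and NQO1 from 88.3 to 213 TPM over the 10 libraries. NFE2L2 itself stood at 68.6 to 98.4 TPM and KEAP1 at 70.7 to 146 TPM, and KEAP1 lay above NFE2L2 in all 6 libraries of the knockdown experiment. SRXN1, which encodes sulfiredoxin, the enzyme that repairs overoxidised peroxiredoxins, ranged from 54.0 to 85.2 TPM. OSGIN1, a growth inhibitor induced by oxidative stress, stood low at 8.49 to 21.2 TPM, as did GCLC at 10.99 to 24.5 TPM. HMOX1, heme oxygenase 1, had the widest span, from 7.62 TPM in an shE2F1 library to 90.4 TPM in an shEZH2 library. Its group means spanned 3.35 on the log2 CPM scale, against 0.35 for NFE2L2, the narrowest of the 9.

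**Figure D1:**
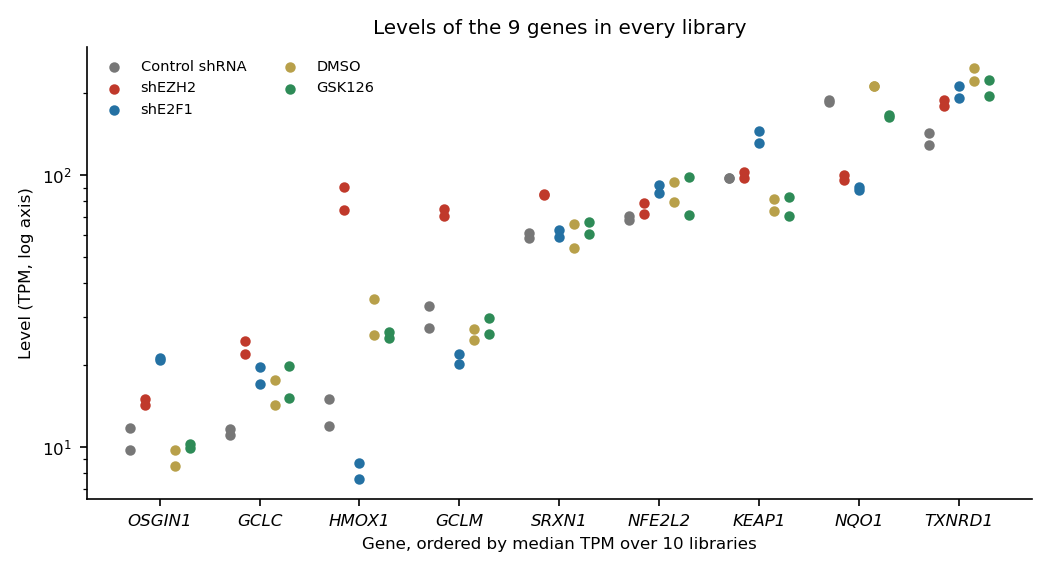
Level of each gene in TPM (vertical log axis), 1 point per library, coloured by group, with genes ordered by their median over the 10 libraries. HMOX1 spreads from 7.62 to 90.4 TPM, while NFE2L2 stays between 68.6 and 98.4 TPM.

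Knockdown of EZH2 split the targets. HMOX1 and GCLM rose, NQO1 fell, and the RNA of NFE2L2 and KEAP1 did not pass the test in either direction. A gene was called where the edgeR adjusted p was under 0.01 and the change over 2-fold, and in shEZH2 against Control shRNA 3 of the 9 were called (33.3%), against a background of 18.2% of the 15373 genes tested. Of these, 2 were higher and 1 lower, where 7.52% of all genes were called higher and 10.7% were called lower. At the looser limit of 0.05 on the adjusted p alone, 4 genes rose and 1 fell, where 27.0% of all genes rose and 28.6% fell. These 5 of 9 are the same share as the background of 55.6%, so the number of genes that moved does not set the pathway apart. The median change of the 9 was 0.27 on the log2 scale, and that of all genes -0.02. In CPM the shEZH2 and control libraries did not overlap for any of the 9, a separation that 77.5% of all genes also showed.

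Knockdown of E2F1 gave another pattern, in which HMOX1 and GCLM fell with NQO1 while OSGIN1, TXNRD1 and KEAP1 rose. Only NQO1 was called, which at 1 of 9 (11.1%) is near the background of 11.6%. No gene of the 9 was called higher, against 5.60% of all genes, and 5.96% of all genes were called lower. With a limit of 0.05 on the adjusted p, 3 rose and 3 fell, 6 of 9 (66.7%) against a background of 44.7%, made up of 21.1% higher and 23.7% lower. The libraries of the 2 groups did not overlap for any of the 9, as for 74.1% of all genes. Both knockdown comparisons use the same control libraries and are therefore not independent.

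The direct comparison of shEZH2 with shE2F1 does not use the controls. HMOX1 and GCLM were called higher in shEZH2, 2 of 9 (22.2%) against a background of 23.3%. At an adjusted p under 0.05, 8 of the 9 differed (background 60.3%), 5 higher and 3 lower in shEZH2, and the exception was TXNRD1. Of the 6 that differed by less than 2-fold, SRXN1 alone passed 0.05 in all 14 alternatives. The libraries did not overlap for any of the 9, nor for 82.5% of all genes. GSK126 gave no call, in these genes (0 of 9) or in any of the 14632 tested (0%), and no gene reached an adjusted p under 0.05 (0%). In edgeR, 577 genes and 1 of the 9 had an unadjusted p under 0.05. DESeq2 called 10 genes, none of the 9.

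**Figure D2:**
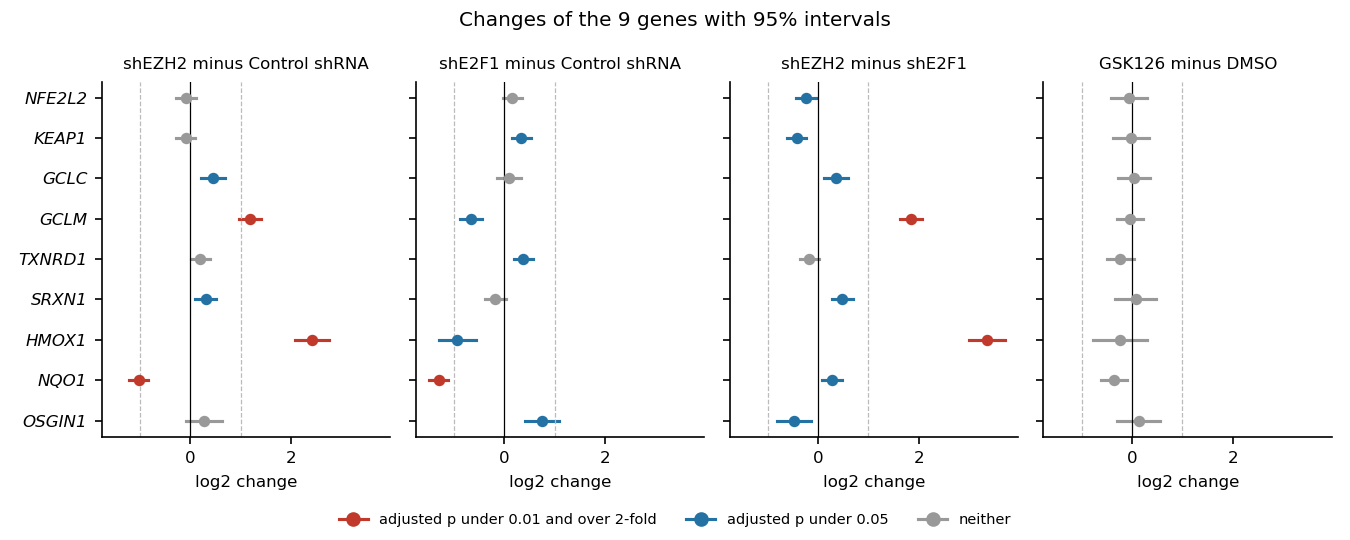
Log2 change (horizontal axis) of each gene in 4 comparisons, with points for the edgeR estimate, bars for its 95% interval and dashed lines at a 2-fold change. HMOX1 and GCLM lie far to the right in shEZH2 and left of 0 in shE2F1, NQO1 lies left of 0 in both, and all 9 points of GSK126 lie within 0.36 of 0.

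NFE2L2, which encodes the regulator itself (ENSG00000116044, chr2:177218667-177392756, minus strand) had 113 and 115 CPM (control), 112 and 103.5 CPM (shEZH2) and 124 and 129 CPM (shE2F1). Its change was -0.09 in shEZH2, with a 95% interval of -0.28 to 0.11 and an edgeR adjusted p of 0.431, and 0.16 (-0.04 to 0.35) in shE2F1, adjusted p = 0.166. These intervals leave no room for a change of 2-fold in either knockdown. With a correction for the GC content and length of the transcript the change in shEZH2 was -0.33 and passed the test (adjusted p = 0.00645). The difference of shEZH2 from shE2F1 was -0.24 on the log2 scale (adjusted p = 0.0327), a call lost in 6 of 14 alternatives. Of the exonic bases of NFE2L2, 23.4% overlap HNRNPA3 on the opposite strand, the largest overlap among 4 overlapping genes. The sources do not state whether counting used the strand.

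KEAP1 (ENSG00000079999, chr19:10486125-10503558, minus strand) had 142 and 138 CPM in control cells against 128 and 134 CPM in shEZH2. In shE2F1 it stood at 174 and 177 CPM, above all other libraries of the study. It rose by 0.34 ± 0.08 (log2 change ± SE, edgeR adjusted p = 0.00833) in shE2F1 and changed by -0.09 ± 0.09 (adjusted p = 0.379) in shEZH2. The rise in shE2F1 was lost without either shE2F1 library (adjusted p = 0.0638 without replicate 1 and 0.0843 without replicate 2). The value in shEZH2 changed with the correction for base composition. Changes in that comparison correlated with the GC content of the transcript (r = -0.24 across 15366 genes, which are not independent replicates), and with the correction KEAP1 was higher by 0.33 (adjusted p = 0.00612). The direction of KEAP1 in shEZH2 therefore differed between settings.

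Glutathione synthesis begins with glutamate-cysteine ligase, whose catalytic subunit is GCLC and whose modifier subunit is GCLM. GCLM (ENSG00000023909, chr1:93885199-93909456, minus strand) had 72.7 and 84.5 CPM in control cells against 174 and 183 CPM in shEZH2. The shE2F1 libraries lay below the controls, at 48.3 and 50.7 CPM. GCLM thus moved in opposite directions, up 2.27-fold in shEZH2 (1.18 ± 0.10, log2 change ± SE, edgeR adjusted p = 6.32e-06) and down 1.58-fold in shE2F1 (-0.66 ± 0.10, adjusted p = 0.000382). Between the 2 knockdowns it differed 3.58-fold (adjusted p = 2.94e-07). With the correction for GC content and length its rise in shEZH2 was 0.92, which passed the adjusted p but not the 2-fold limit.

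GCLC (ENSG00000001084, chr6:53497341-53616970, minus strand) moved less than its partner. It had 22.1 and 22.9 CPM (control), 30.7 and 30.8 CPM (shEZH2) and 23.8 and 23.9 CPM (shE2F1). The rise in shEZH2 was 1.37-fold (0.45 ± 0.11, edgeR adjusted p = 0.00554), and the change in shE2F1 was 0.09 with an interval of -0.15 to 0.34. GCLC is the gene of the 9 for which the transcript model mattered most. Its effective length, as estimated by the authors' software from the mix of transcripts, ranged from 2006 to 2829 bases over the libraries. With that length as an offset the changes became 0.85 in shEZH2 and 0.48 in shE2F1, the latter with an adjusted p of 0.0218. GCLM also varied in effective length, by 33.7%, but its changes of 1.08 and -0.74 under the same offset kept their direction and their test.

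In the thioredoxin system, TXNRD1 (ENSG00000198431, chr12:104215779-104350307, plus strand) had 336 and 330.5 CPM (control), 369 and 397 CPM (shEZH2) and 420.5 and 439.9 CPM (shE2F1). It rose 1.3-fold in shE2F1 (0.38 ± 0.09, edgeR adjusted p = 0.00497), a call lost without shE2F1 replicate 2 (adjusted p = 0.0678). Its change in shEZH2 was 0.20 ± 0.09, which missed the threshold (adjusted p = 0.0715) and passed it in 2 of 14 alternatives. The groups stood in the order control, shEZH2, shE2F1, but neither step between neighbours passed the test. SRXN1 (ENSG00000271303, chr20:646615-653200, minus strand) had 95.8 and 107 CPM (control), 124 and 126 CPM (shEZH2) and 93.8 and 84.7 CPM (shE2F1). It rose 1.23-fold in shEZH2 (adjusted p = 0.0196) and changed by -0.18 (adjusted p = 0.162) in shE2F1. The rise was lost without shEZH2 replicate 2 (adjusted p = 0.0675) and without Control shRNA replicate 1 (adjusted p = 0.0971). Most of SRXN1 (90.6% of its 50-base stretches) also occurs in the readthrough gene ENSG00000270299, which was given 5.55 counts in 1 control library and 0 in the other 9.

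HMOX1, which opens the heme ring to give biliverdin, carbon monoxide and iron, changed most of the 9. The gene (ENSG00000100292, chr22:35380361-35394214, plus strand) had 14.3 and 12.0 CPM in control cells. It reached 62.9 and 79.1 CPM in shEZH2 and dropped to 6.41 and 7.38 CPM in shE2F1. Both shEZH2 libraries lay above the other 8 libraries of the study and both shE2F1 libraries below them. The rise in shEZH2 was 5.38-fold (2.43 ± 0.15, log2 change ± SE, edgeR adjusted p = 1.6e-06), and its value ran from 2.26 to 2.82 over 14 alternatives. The fall in shE2F1 was 1.91-fold (-0.93 ± 0.17, adjusted p = 0.00123), just inside the 2-fold limit, and passed that limit without shE2F1 replicate 2 (-1.03) or without Control shRNA replicate 2 (-1.05). From shE2F1 to shEZH2 the level differed 10.3-fold (adjusted p = 1.74e-07). None of the 50-base stretches of HMOX1 occurs in another annotated gene.

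NQO1 went the other way from HMOX1 in shEZH2. The gene (ENSG00000181019, chr16:69706996-69726668, minus strand) had 145 and 155 CPM (control), 72.7 and 74.6 CPM (shEZH2) and 61.2 and 59.6 CPM (shE2F1). All 4 knockdown libraries lay well below both controls, and the replicates lay close together. NQO1 fell 2.04-fold in shEZH2 (-1.03 ± 0.09, edgeR adjusted p = 7.46e-06) and 2.47-fold in shE2F1 (-1.31 ± 0.09, adjusted p = 2.38e-06). The first value sits at the 2-fold limit and read -0.99 without Control shRNA replicate 2, with an adjusted p of 3.51e-05. NQO1 was thus the only one of the 9 that fell in both knockdowns. An antisense lncRNA covers 19.4% of its exonic bases.

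OSGIN1 (ENSG00000140961, chr16:83931311-83966332, plus strand) had 11.2 and 15.2 CPM (control), 15.98 and 15.8 CPM (shEZH2) and 22.4 and 21.6 CPM (shE2F1). It rose 1.68-fold in shE2F1 (0.75 ± 0.16, edgeR adjusted p = 0.00269). In shEZH2 its change was 0.27 ± 0.16 (adjusted p = 0.172). The GC and length correction moved the shEZH2 value to 0.76 (adjusted p = 0.00462), and the difference between the knockdowns, -0.48 before it, then read 0.02. The 2 control libraries differed more for OSGIN1 than for the other genes of the 9, and without Control shRNA replicate 2 the shEZH2 change was 0.50 (adjusted p = 0.0223).

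**Figure D3:**
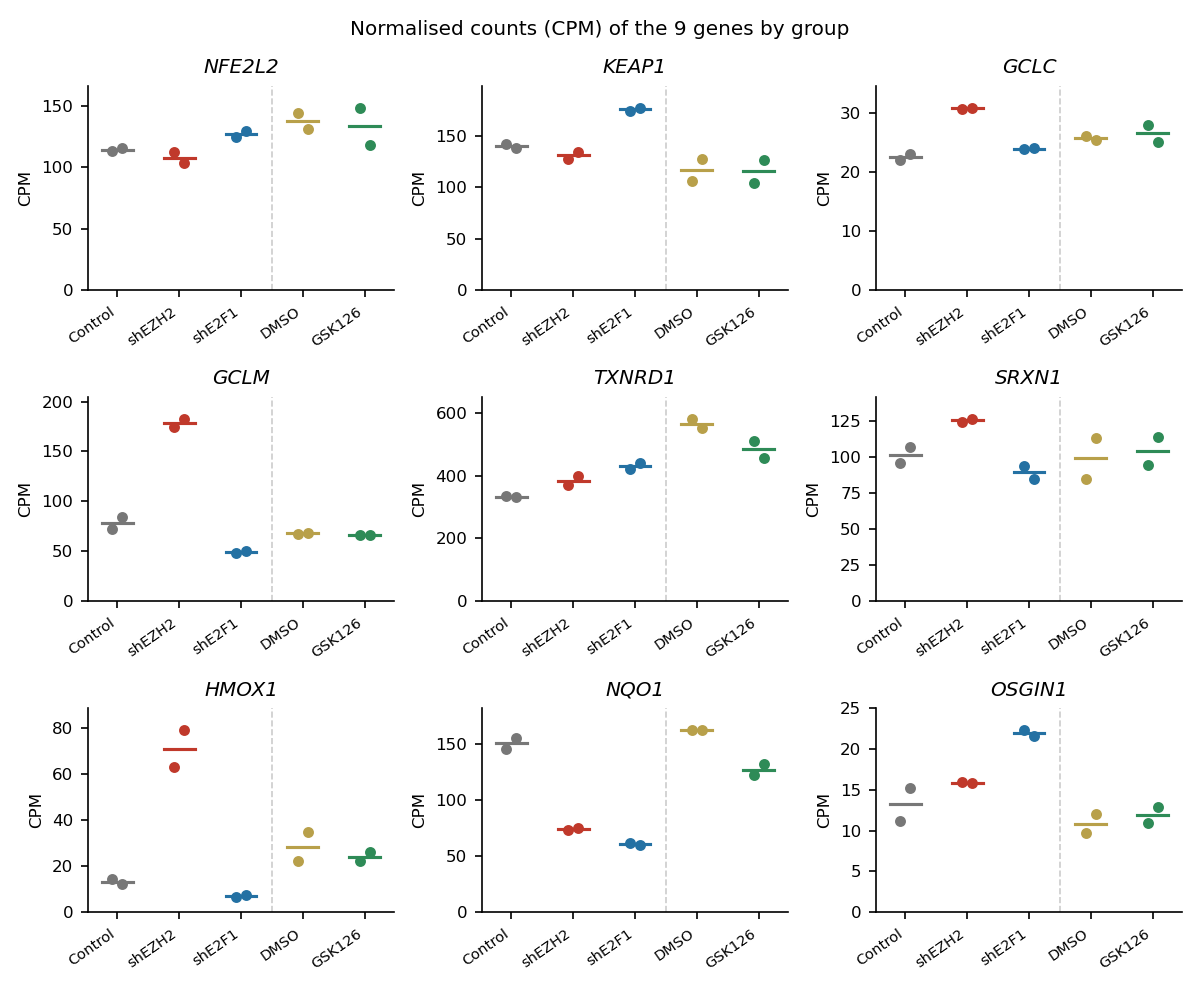
Normalised counts (CPM, vertical axes from 0) of each gene in the 5 groups, with points for the 2 libraries and a line for their mean, and a dashed line between the knockdown and the drug experiment. HMOX1 reaches 62.9 and 79.1 CPM in shEZH2 against 12.0 and 14.3 CPM in the controls, and NQO1 lies below its controls in both knockdowns.

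With GSK126 none of the 9 passed the test against DMSO. In a fit with the replicate number as a block, a pairing that the labels do not give, NQO1 and TXNRD1 passed 0.05 without reaching 2-fold. In that fit 13.6% of all 14632 genes passed 0.05. HMOX1 had 22.1 and 34.7 CPM with DMSO against 22.1 and 25.9 CPM with GSK126, a change of -0.25 with a 95% interval of -0.78 to 0.29 (edgeR adjusted p = 1). The 2 DMSO libraries differed more for HMOX1 than the 2 groups did. GCLM had 67.2 and 68.4 CPM with DMSO against 66.6 and 65.8 CPM with GSK126, and its interval, -0.30 to 0.22, leaves no room for the rise seen in shEZH2. NQO1 had the largest change of the 9 and the only unadjusted p under 0.05, with 162.2 and 161.7 CPM for DMSO against 122 and 131 CPM for GSK126 (-0.36, interval -0.61 to -0.10, unadjusted p = 0.0139, adjusted p = 1). TXNRD1 had 581 and 550.3 CPM with DMSO against 511 and 456 CPM with GSK126, a change of -0.23 (interval -0.50 to 0.03). The changes of the other 5 genes lay between -0.05 and 0.13 on the log2 scale. The libraries of the 2 groups did not overlap for GCLM, TXNRD1 and NQO1, 3 of 9, against 28.4% of all genes.

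The difference between the effect of the EZH2 hairpin and the effect of GSK126 was tested in a fit of all 10 libraries. HMOX1 (2.69 ± 0.29, edgeR adjusted p = 6.59e-05) and GCLM (1.23 ± 0.15, adjusted p = 0.000123) were called, 2 of 9 against a background of 13.8% of 15773 genes. NQO1 (-0.66, adjusted p = 0.00297) and TXNRD1 (0.44, adjusted p = 0.03) also differed at 0.05, making 4 of 9 against 36.6% of all genes. The call of TXNRD1 was lost in 7 of 16 alternatives, with adjusted p up to 0.123. For GCLC the difference was 0.42, with an interval of 0.06 to 0.79 and an adjusted p of 0.0653. The hairpin and the inhibitor were studied in separate experiments with other controls, and lentivirus and puromycin entered one of them only.

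**Figure D4:**
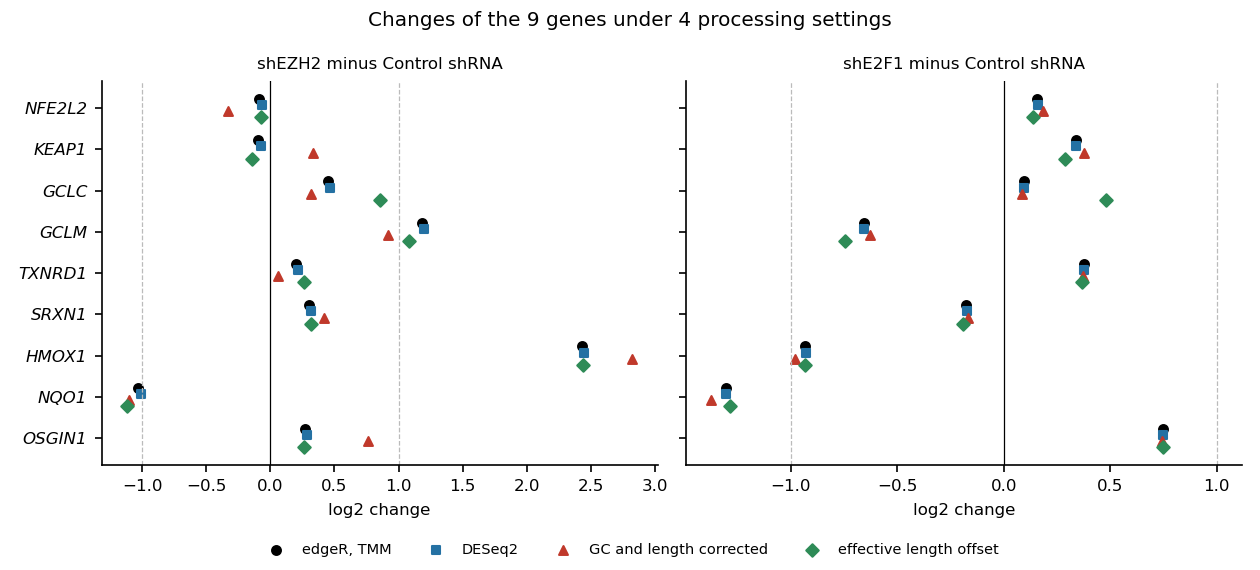
Log2 change (horizontal axes) of each gene in the 2 knockdowns under 4 processing settings, with dashed lines at a 2-fold change. HMOX1 stays above 2 in shEZH2 in all 4, KEAP1 crosses 0 in shEZH2 with the GC and length correction, and GCLC moves from 0.45 to 0.85 with the effective length offset.

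A list of 77 other genes of the pathway was followed in the same fits, of which 72 were tested in the knockdown experiment. In shEZH2, 48 of the 72 passed an adjusted p of 0.05, 16 higher and 32 lower, and 17 were called, 4 higher and 13 lower (23.6%, against 18.2% of all genes). The shares of all genes at 0.05 were 55.6% in shEZH2, 27.0% higher and 28.6% lower, which is the background for each class of the list. The median change of the list was -0.13. In shE2F1, 42 passed 0.05, 17 higher and 25 lower, and 6 were called (8.33%, against 11.6% of all genes), 1 higher and 5 lower, with a median of -0.05. There 44.7% of all genes passed 0.05, 21.1% higher and 23.7% lower. Without a replicate block, no gene of the list reached an adjusted p under 0.05 with GSK126 in edgeR or DESeq2. An unadjusted p under 0.05 was seen for 3 in edgeR and 0 in DESeq2. With the block 13.6% of all genes passed 0.05 in edgeR, and the list was not counted at 0.05 in that fit. In shEZH2 more of the list thus fell than rose, while HMOX1 and GCLM rose. The list mixes targets of NRF2 with repressors and regulators, and with genes not under NRF2 alone. Its net direction therefore need not be that of the targets alone. In shEZH2 the class of transcription factors and their control had 6 higher and 4 lower. The class not under NRF2 alone had 1 higher and 2 lower. Most of the 32 lower genes thus belonged to the other classes.

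Among the 14 genes of transcription factors and their control, 6 rose and 4 fell in shEZH2, and 8 rose and 2 fell in shE2F1. BACH1, the repressor of HMOX1, had 39.0 and 37.2 CPM (control), 85.2 and 87.5 CPM (shEZH2) and 102.5 and 98.1 CPM (shE2F1). It rose in both, by 1.18 and 1.40 on the log2 scale (edgeR adjusted p = 5.05e-06 and 2.15e-06), and by 0.87 in shEZH2 with the GC and length correction, under the 2-fold limit. BACH1 was thus higher both where HMOX1 was higher and where HMOX1 was lower than in the controls. BACH2, a relative of BACH1, rose by 2.68 in shEZH2 from a low level, 13 and 17 counts in the controls to 58 and 113 counts. The small MAF gene MAFG fell by 0.52 in shEZH2 and rose by 0.35 in shE2F1, the latter lost without shE2F1 replicate 2 (adjusted p = 0.151) or Control shRNA replicate 1 (adjusted p = 0.0591). SQSTM1, whose protein p62 draws KEAP1 into autophagy, rose by 0.92 in shE2F1 and changed by 0.24 (adjusted p = 0.0713) in shEZH2, where 6 of 14 alternatives passed the test, with 0.55 under the GC and length correction and 0.40 without Control shRNA replicate 1.

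Most of the glutathione transferases, which attach glutathione to electrophiles, fell in shEZH2. Of 10 tested, 7 fell and 1 rose, where 28.6% of all genes fell and 27.0% rose, and the median change was -1.13. The 5 called lower were GSTM4 (-2.08), GSTM2 (-1.69), GSTM1 (-1.58), GSTM3 (-1.28) and GSTP1 (-1.15), of which the last 4 were named after their values were seen. With the GC and length correction GSTP1 changed by -0.65, under the 2-fold limit. Reads of GSTM1 and GSTM2 are hard to separate, since 49.7% of the 50-base stretches of GSTM1 occur in another gene, mostly GSTM2. In shE2F1 the family divided, with 3 higher and 3 lower. GSTA4 (-1.96), MGST1 (-1.65, named after its values were seen) and GSTP1 (-1.24) were called lower, and GSTM4 rose by 0.51 (adjusted p = 0.0171). GSTP1 had 225 and 222.5 CPM (control), 105 and 97.4 CPM (shEZH2) and 98.1 and 90.6 CPM (shE2F1), a pattern like that of NQO1.

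The genes grouped under the supply of NADPH, the reductant used by TXNRD1, NQO1 and glutathione reductase, were mostly lower. The group also holds enzymes of the pentose phosphate pathway that make no NADPH themselves, TKT among them. In shEZH2 4 of 5 fell and in shE2F1 all 5 fell, where 28.6% and 23.7% of all genes did, with medians of -0.54 and -0.56. PGD, a dehydrogenase of the pentose phosphate pathway, changed by 0.07 in shEZH2 and fell by 0.41 in shE2F1, the fall lost without shE2F1 replicate 2 (adjusted p = 0.0504). TKT, transketolase, fell by 1.29 in shEZH2, and the malic enzyme gene ME1 fell by 1.83 in shE2F1.

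Glutathione recycling and cystine import showed no common direction. In shEZH2 2 of 8 genes rose and 2 fell, with changes of 1.09 for GLRX, glutaredoxin (0.81 without shEZH2 replicate 2 and 0.97 without Control shRNA replicate 2, under the 2-fold limit), and -2.72 for GGT1, which breaks down extracellular glutathione. Of the 50-base stretches of GGT1, 58.3% occur in another gene. GSR, glutathione reductase, fell by 0.62 in shEZH2 and changed by 0.21 in shE2F1 (adjusted p = 0.0994). GSS, glutathione synthetase, changed by 0.06 and 0.22, and SLC7A11, the cystine carrier, by 0.21 and 0.08, none of which passed the test. Among 10 thioredoxin and peroxiredoxin genes 2 rose and 3 fell in shEZH2, and 1 rose and 2 fell in shE2F1. TXNIP, which binds and inhibits thioredoxin, had changes of -1.31 and -1.94, a fall in both knockdowns, and read -0.99 in shEZH2 without shEZH2 replicate 2. TXN itself changed by 0.17 and -0.12 without passing the test, and PRDX1 by 0.10 in shEZH2 (adjusted p = 0.46) while it fell by 0.47 in shE2F1, which was lost without shE2F1 replicate 1 (adjusted p = 0.0512).

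The genes downstream of heme divided as HMOX1 did in part. Of 6 heme and iron genes 2 rose and 2 fell in shEZH2, and 1 rose and 4 fell in shE2F1. FTL, the light chain of the iron store ferritin, had 2381 and 2630 CPM (control), 3238 and 3425 CPM (shEZH2) and 1827 and 1660 CPM (shE2F1). Its changes were 0.41 (edgeR adjusted p = 0.00419) and -0.51 (adjusted p = 0.0015), the same signs as HMOX1. The rise of FTL in shEZH2 ran from 0.34 to 0.69 over 14 alternatives and lost the test in 1 of them. FTH1, the heavy chain, fell in both, with changes of -0.61 and -0.60. BLVRB, a biliverdin reductase, had the reverse order of HMOX1, with a change of -1.53 in shEZH2 and 0.74 in shE2F1. BLVRA, also of this class, did not share that order, with 0.04 (edgeR adjusted p = 0.86) and -0.57 (adjusted p = 0.012). SLC48A1 of the same class had the signs of HMOX1, with 0.82 and -0.69. Both were named after their values were seen. Of the 50-base stretches of FTH1 and FTL, 20.1% and 18.5% occur in other genes, the most in a pseudogene.

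Of 9 genes for quinone, aldehyde and carbonyl detoxification tested, 0 rose and 6 fell in shEZH2, and 1 rose and 4 fell in shE2F1, where 28.6% and 23.7% of all genes fell. ALDH3A1, an aldehyde dehydrogenase, was called lower in shEZH2 on 3 counts against 26 in the controls, a ratio of 7.17 with an exact 95% counting interval of 2.2 to 37, and the test was lost without Control shRNA replicate 2 (adjusted p = 0.0581). In shE2F1 ALDH3A1 was the 1 gene of the class that rose, by 1.43 (edgeR adjusted p = 0.025) on 49 and 31 counts. NQO2 was also called lower in shEZH2, by -1.54 (adjusted p = 1.25e-05), and was named after its values were seen. Of 5 export pumps 2 rose and 2 fell in shEZH2, with changes of 1.91 for ABCC2 and -1.65 for ABCB6, and 1 rose and 1 fell in shE2F1. Among 5 genes of superoxide and peroxide removal, a class not under NRF2 alone, 1 rose and 2 fell in each knockdown. GPX1, a glutathione peroxidase, fell by 1.63 in shEZH2 and by 0.38 in shE2F1, while the other gene that fell was SOD1 in shEZH2 and CAT in shE2F1, both named after their values were seen. ABCB6 and GPX1 share 48.6% and 33.8% of their 50-base stretches with an overlapping gene on the same strand.

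**Figure D5:**
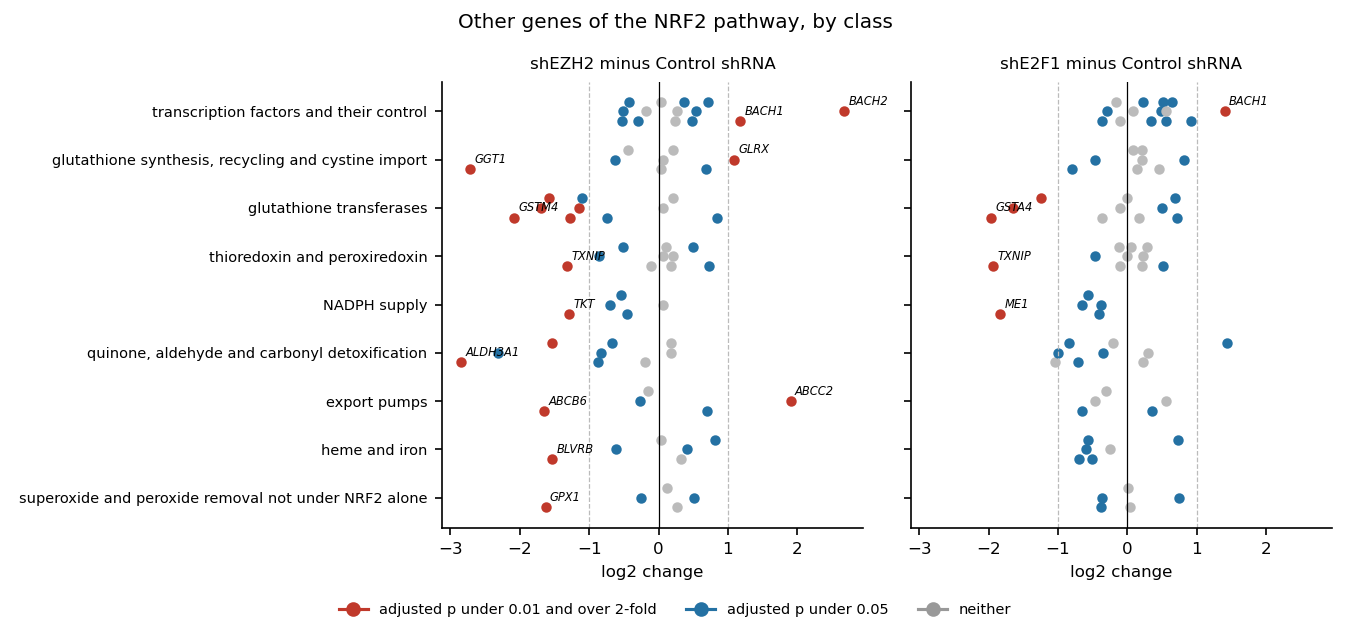
Log2 change (horizontal axes) of the 72 tested genes of the wider list in the 2 knockdowns, 1 point per gene in rows by class, coloured by the test, with dashed lines at a 2-fold change. Glutathione transferases and the genes grouped under NADPH supply lie mostly left of 0 in shEZH2, and BACH1 lies right of 0 in both panels.

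Across the 10 libraries the 9 genes did not move as a block. Described by Pearson's r of log2 CPM over the 10 libraries, which share groups and controls, GCLM and HMOX1 went together (r = 0.85), as did GCLC and HMOX1 (0.83) and KEAP1 and OSGIN1 (0.87). NQO1 ran against OSGIN1 (-0.86) and showed little relation to HMOX1 (0.10). NFE2L2 had r = -0.64 with GCLM and 0.79 with TXNRD1. The 10 libraries pool 2 experiments whose controls differed in level. NFE2L2 averaged 114 CPM in Control shRNA and 137 CPM in DMSO, and TXNRD1 333 and 565 CPM. The part of this difference in the r values was not tested. Among 11854 genes with a mean of at least 50 counts, those most like HMOX1 over the 10 libraries were SMARCAL1 (r = 0.98), TMEM63B (0.98) and SEC61A1 (0.98).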

How the data were processed

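Grouping and replicate numbering followed the labels. Of 18 sample records, 8 held the same values as another record and were left out. Per the study's methods and processing notes, the authors mapped reads of a strand-specific poly(A) kit to hg38 with STAR (2.7.2b in the notes) and quantified genes with RSEM (1.3.1), and whether counting used the strand is not given in the sources used here. The deposited expected counts (estimated counts, in which reads of several genes are divided) were rounded for tests. The deposited TPM values served only for levels between genes. CPM values were computed from the counts with TMM scaling over 10 libraries. The effective gene length, which the authors deposited in bases, was used only as an offset. Of the gene identifiers, 99.9% matched GENCODE release 44 (GRCh38), the source of names and coordinates.

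In R 4.3.3, edgeR 4.0.16 fitted the 6 knockdown libraries together, the 4 drug libraries apart and all 10 for the difference of effects, with filterByExpr, TMM, the two-sided quasi-likelihood F-test and p-values adjusted by Benjamini-Hochberg across every gene tested. The call rule was an adjusted p under 0.01 together with a change over 2-fold, and "rose" or "fell" means an adjusted p under 0.05. A count of 0 allows 0.150 to 0.227 CPM (3 counts), by counting error only. The genes and lists were chosen with earlier results of these data known. In the wider list, 12 genes were named throughout (GSS, GSR, SLC7A11, TXN, PRDX1, PGD, BACH1, MAFG, SQSTM1, FTL, FTH1 and BLVRB), with the largest called change per class, direction and knockdown, and genes outside that rule are marked as named after their values were seen. 1 gene was taken out of that list, is not reported here and enters none of its counts. The pipeline was tested on simulated counts. Alternatives were DESeq2 1.42.0, its size factors, no filter or a mean of 50 counts, other library sets, a replicate block, an effective length offset, a spline correction for GC content and length (5 degrees of freedom), other thresholds and leaving out each library.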

Additional observations from a re-analysis of the deposited data

Results flagged for a closer look

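For 2 of the 9 genes the effect of the EZH2 hairpin and the effect of GSK126 differed past the call rule in a test of the difference itself over all 10 libraries (edgeR). For HMOX1 the difference was 2.69 on the log2 scale, from 2.43 in shEZH2 against its control to -0.25 in GSK126 against DMSO. For GCLM the difference was 1.23, from 1.18 to -0.04. The values over 16 alternatives ran from 2.32 to 3.07 for HMOX1 and from 0.94 to 1.33 for GCLM. No library was tested as an outlier, since groups held 2 libraries each.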

How the results depend on the processing

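Over 88 gene changes, 1236 values were computed under the alternatives. Of these 1123 kept their direction and their side of an adjusted p of 0.05, 43 lost the test, 38 gained it and 32 turned direction. HMOX1 and GCLM in both knockdowns and NQO1 in both kept direction and test under every alternative run. The cause of the changes below was not tested.

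With an adjusted p under 0.05 and no limit on size, the counts of the 9 genes were 5, 6, 8 and 4 (shEZH2, shE2F1, shEZH2 against shE2F1, difference of effects) in place of 3, 1, 2 and 2, and those of the wider list 48, 42, 46 and 35 in place of 17, 6, 16 and 16. Of all genes, 55.6%, 44.7%, 60.3% and 36.6% passed 0.05 in the same order, and 18.2%, 11.6%, 23.3% and 13.8% were called. The wider list had 72 tested genes in the first 3 comparisons and 73 in the last. With an adjusted p under 0.01 alone they were 6 of the 9 in shE2F1 and 4 between the knockdowns, and 39, 27 and 40 of the wider list in the first 3 comparisons. For this limit the share of all genes was not computed, so these counts have no background here. For the difference of effects 1 of the 9 was called with the GC and length correction, with the block or without. Leaving out 1 library gave 1 to 2 of the 9 in shE2F1, the 2 without shE2F1 replicate 2 or Control shRNA replicate 2.

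The GC and length correction turned KEAP1 in shEZH2 (0.33, and 0.33 with the replicate block), KEAP1 in the difference of effects (0.37 and 0.37), OSGIN1 between the knockdowns (0.018 and 0.011) and SLC7A11 in shEZH2 (-0.28 and -0.28). NFE2L2 in the difference of effects read 0.005 with DESeq2 and 0.006 with its size factors, and GCLM under GSK126 read 0.085 with the length offset.

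Leaving out 1 library at a time gave ranges across 0, for GSK126, in NFE2L2 (-0.23 to 0.12), KEAP1 (-0.16 to 0.11), GCLC (-0.047 to 0.13), SRXN1 (-0.11 to 0.28), HMOX1 (-0.53 to 0.10) and OSGIN1 (-0.011 to 0.29). For the difference of effects it did so in NFE2L2 (-0.19 to 0.15), KEAP1 (-0.21 to 0.077) and OSGIN1 (-0.057 to 0.37). In the wider list it did so in SLC7A11 (-0.025 to 0.49 in shEZH2, -0.16 to 0.36 in shE2F1), TXN (-0.002 to 0.37 and -0.30 to 0.083) and PRDX1 (-0.049 to 0.27 in shEZH2). A lone library left in a group is assumed to vary like the others.

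Replicate numbers did not pair the libraries by the labels. The differences between replicates correlated at 0.64 between DMSO and GSK126 and at 0.05 to 0.21 among the knockdown groups. With the replicate number as a block, 68 of 14632 genes were called for GSK126 and 1990 (13.6%) passed 0.05. None of the 9 was called, and NQO1 (-0.36, edgeR adjusted p = 2.75e-08) and TXNRD1 (-0.23, edgeR adjusted p = 1.05e-07) passed 0.05. With 2 libraries a group, depth limits mainly the low genes.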
